A study of Mus musculus with 12 samples.

Results

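Fam83d, whose probe separated the subjective night from the subjective day in the hippocampus of mice kept in darkness, was set beside 9 other genes of adult neurogenesis and cell division. The 10 genes were Fam83d, Mki67, Top2a, Cdk1 and Ccnb1, which act in cell division, and Dcx, Sox11, Eomes, Neurod1 and Calb2, which mark progenitors and young neurons. They were picked by the gene name that the array gives each probe, and 20 probes of the 55681 non-control probes carried one of these names. Of the 10 genes, 8 entered tests that covered 24089 genes, and Top2a and Cdk1 did not, because no circadian time had all 3 arrays well above background for them. Fam83d was chosen because its own values in these libraries had passed the tests over circadian time. Its calls and p-values in those tests are therefore given below as a description and are no test of it.

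Total RNA from the hippocampus of 12 adult male wild-type mice was measured on 1-colour Agilent arrays, 1 mouse per array and 3 mice per group. All mice were in constant darkness. The groups were CT18 (circadian time 18, the middle of the subjective night) after 30 h of darkness, CT0 (start of the subjective day) after 36 h, CT6 (middle of the subjective day) after 42 h and CT12 (start of the subjective night) after 48 h, so the hours in darkness and the circadian time cannot be told apart. The strain is not named in the labels. Values are log2 intensities minus the 75th percentile of the array, called scaled log2 below, so a value below 0 means only that the probe is dimmer than that percentile. Levels of different probes are not compared.

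The dentate gyrus of the hippocampus keeps dividing neural stem cells into adulthood. Radial glia-like stem cells give rise to dividing intermediate progenitors that express Eomes, then to neuroblasts that express Dcx, Sox11 and Neurod1, and then to young granule neurons that pass through a phase of Calb2 expression. Genes of mitosis are transcribed in late cell cycle phases, and many carry in their promoters a cell cycle genes homology region (CHR), bound by MuvB complexes, next to CCAAT boxes, bound by NF-Y.

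The promoters of the 5 cell division genes are shown because the question was whether Fam83d cycles with genes of its own kind. Each line gives the 200 bases before the annotated start (RefSeq, GRCm38.p6), 5′ to 3′ on the strand of the gene. Capitals mark the CHR letters TTTGAA and the CCAAT box, searched on both strands, so that TTCAAA and ATTGG mark the same motifs on the other strand.
Fam83d promoter, chr2:158767899-158768098, plus strand: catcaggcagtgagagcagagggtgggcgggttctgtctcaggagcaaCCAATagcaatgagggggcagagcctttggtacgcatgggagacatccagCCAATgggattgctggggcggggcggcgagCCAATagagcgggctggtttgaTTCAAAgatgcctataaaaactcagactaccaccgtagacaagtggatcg
Mki67 promoter, chr7:135716380-135716579, minus strand: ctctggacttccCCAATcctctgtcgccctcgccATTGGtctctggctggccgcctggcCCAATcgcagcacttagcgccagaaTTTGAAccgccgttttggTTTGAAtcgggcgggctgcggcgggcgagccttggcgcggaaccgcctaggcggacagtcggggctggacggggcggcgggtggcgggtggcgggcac
Top2a promoter, chr11:99024190-99024389, minus strand: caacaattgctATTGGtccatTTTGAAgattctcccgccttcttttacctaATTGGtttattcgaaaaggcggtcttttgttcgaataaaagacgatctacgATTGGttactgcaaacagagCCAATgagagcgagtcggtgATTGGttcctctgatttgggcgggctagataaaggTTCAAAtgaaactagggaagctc
Cdk1 promoter, chr10:69352913-69353112, minus strand: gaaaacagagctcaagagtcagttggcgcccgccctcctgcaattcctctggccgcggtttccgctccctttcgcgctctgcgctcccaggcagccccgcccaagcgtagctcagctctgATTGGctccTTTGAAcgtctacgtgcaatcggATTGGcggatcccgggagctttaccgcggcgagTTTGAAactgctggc
Ccnb1 promoter, chr13:100786487-100786686, minus strand: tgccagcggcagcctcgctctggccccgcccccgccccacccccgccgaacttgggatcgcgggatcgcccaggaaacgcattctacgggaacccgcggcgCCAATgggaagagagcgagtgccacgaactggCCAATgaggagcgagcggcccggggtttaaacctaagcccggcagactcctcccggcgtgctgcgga
Fam83d holds 1 TTTGAA and 3 CCAAT in this window, Mki67 2 and 3, Top2a 2 and 5, Cdk1 2 and 2, and Ccnb1 0 and 2. No match overlaps another in these 5 windows. The absence of TTTGAA before Ccnb1 says only that these letters are not in this window. Over windows of 300 bases (250 before to 50 after the start), TTTGAA was found for 29 of the 40 genes of a list of mitosis genes that have such an entry, against 20.2% of 27025 genes, and CCAAT for 30 of 40, against 41.1%. Both motifs were found for 26 of 40, Fam83d, Mki67, Top2a and Cdk1 among them, against 7.97% of all genes. The E-box CACGTG, the letters that CLOCK and BMAL1 bind, was found for 3 of the 40, against 8.09%, and for none of these 5 genes. A match is a description of the letters.

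By markers of cerebellum and forebrain, CT12 mouse 11 stood apart most among the 12 libraries. Gabra6, a receptor subunit of cerebellar granule cells, was at 4.21 in it and between -7.71 and -6.84 in the other 11 libraries, and Fat2, a cadherin of the same cells, was at 4.43 against -2.74 to -2.21. Emx1, a transcription factor of the dorsal forebrain, was not well above background there, at -6.44, and lay between -0.38 and 0.63 elsewhere. The summed level of 14 measured cerebellum genes was 9.01 (log2) there, 5.42 in CT12 mouse 10 and 5.04 in CT12 mouse 12. In the libraries of the other times it was 4.39 to 4.68. CT12 mouse 10 also had sums of 5.78 for forebrain neuron genes and 6.48 for CA pyramidal cell genes. Apart from CT12 mice 10 and 11, these sums were 6.30 to 6.68 and 6.88 to 7.18. Its thalamus sum is given below with Calb2. CT0 mouse 3 had 77.1% of its spots well above background, against 59.3% to 67.1% on the other arrays. Over all probes it had the lowest median r with the other libraries, 0.957. That median was 0.97 for CT12 mouse 11 and 0.986 to 0.99 for the rest. Most results that rest on CT12 mouse 11 or CT0 mouse 3 are given with and without that library. CT0 mouse 1 was the array whose quality metric read Evaluate, where the others read InRange. Its median local background was 100, against 25 to 37 on the other arrays. Calls of Fam83d without CT0 mouse 1 or CT12 mouse 10 are given in the closing section. Per the file headers, all arrays of a circadian time sat at 1 position of their slides, so these effects cannot be told apart. The labels name separate mice, and with bulk RNA, fewer cells of a type and less RNA per cell cannot be told apart.

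Fam83d encodes a protein of the mitotic spindle that brings casein kinase 1 alpha to the spindle. Its single probe lies on mm9 chr2:158611993-158612052. At CT0 its values were -6.95, -6.08 and -7.24, and at CT6 they were -6.15, -6.51 and -6.13. At CT12 they were -4.35, -4.65 and -4.79, and at CT18 they were -4.81, -4.88 and -4.87. The 6 values of the subjective night all lay above the 6 values of the subjective day, and CT12 mouse 11 lay inside the range of the other mice of its time. CT12 mouse 10, whose tissue markers also differed from those of most libraries, held the highest value, -4.35.

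The night values were themselves low. Fam83d was well above background on all 6 arrays of CT12 and CT18 and on 0 of the 6 arrays of CT0 and CT6. On the night arrays it exceeded the dimmest probe well above background by 0.17 to 1.39 (log2), with processed signals of 11.8 to 29.7. On the day arrays the processed signals were 2.87 to 7.64. The 6 day values are therefore bounds and have no order among them.

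With each dim array set at its dimmest probe well above background, Fam83d was 1.52-fold higher at CT12 than at CT0 and 1.70-fold higher than at CT6. On the same measure CT18 was 1.27-fold above CT0 and 1.43-fold above CT6. These are approximate bounds, since a probe that is not well above background can lie above that level. In CT0 mouse 3 the level was -4.99, and the second Eomes probe, not well above background there, was at -4.79. The measured means were -6.76 ± 0.60 (SD, n = 3) at CT0, -6.26 ± 0.21 at CT6, -4.60 ± 0.22 at CT12 and -4.85 ± 0.04 at CT18. Within the 3 slides, set against the same level on the day array, CT12 was above CT0 by 0.84, 0.76 and 0.21 (log2). CT18 was above CT6 by 0.60, 0.50 and 0.45, and these too are approximate bounds. The second slide of the first comparison holds CT12 mouse 11.

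The Fam83d probe passed the filter on dim probes only through the times at which it was bright. Among 55681 probes it was the 1 that lay above background on all arrays of CT12 and CT18 and on no array of CT0 and CT6, and 1 probe showed the reverse. After normexp background correction, which adds an offset of 50 to every intensity, the range of the 4 means was 0.30 (log2) in place of 2.16, a range that includes the values below background.

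**Figure D1:**
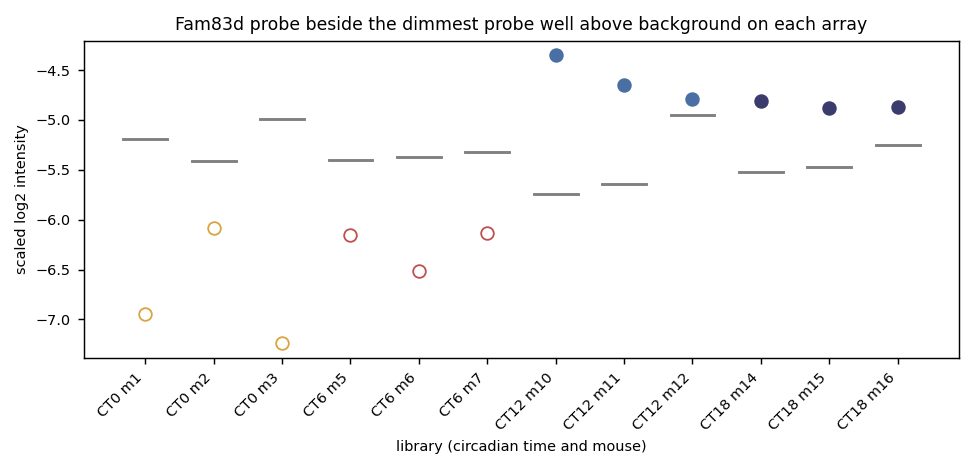
Scaled log2 intensity of the Fam83d probe (circles) in each library, with the dimmest probe well above background on that array as a grey line; filled circles are well above background and open circles are not. The 6 arrays of CT12 and CT18 lie 0.17 to 1.39 above their line and the 6 arrays of CT0 and CT6 lie below it.

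None of the other 4 cell division genes passed a test over circadian time, and 2 of them were too dim to test. Mki67, which encodes the proliferation antigen Ki-67 that coats mitotic chromosomes, was well above background on all 12 arrays. Its brighter probe (mm9 chr7:142881591-142881650) had values of -2.21, -2.23 and -2.34 at CT0, -2.16, -2.09 and -2.66 at CT6, -2.44, -3.07 and -2.50 at CT12, and -2.12, -2.26 and -2.25 at CT18. The 3 values at CT12 lay below the 3 at CT0 and the 3 at CT18, where Fam83d was bright at both CT12 and CT18, and CT12 mouse 11 was the lowest library. CT12 minus CT0 was -0.41 ± 0.19 (SE; limma adjusted p = 0.428), and -0.21 ± 0.15 without CT12 mouse 11 (adjusted p = 0.78). The second Mki67 probe, on chr7:142884764-142884823, gave -0.61 ± 0.20 (limma adjusted p = 0.367) and correlated with the first over the 12 libraries at r = 0.91. Without CT12 mouse 11, also its lowest library, it gave -0.38 ± 0.16 (limma adjusted p = 0.565) and r = 0.77.

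Ccnb1 encodes cyclin B1, the activator of CDK1 at entry into mitosis. Of its 3 probes, 1 was well above background on all 12 arrays (mm9 chr13:101548722-101548781). It read -3.98, -3.94 and -4.41 at CT0, -3.85, -4.08 and -4.0 at CT6, -4.39, -4.77 and -4.18 at CT12, and -3.87, -3.68 and -4.01 at CT18. CT12 had the lowest mean, CT12 mouse 11 was again the lowest library, and the values of CT12 and CT0 overlapped. CT12 minus CT0 was -0.33 ± 0.18 (limma adjusted p = 0.462), and -0.17 ± 0.16 without CT12 mouse 11 (adjusted p = 0.842). CT18 minus CT6 was 0.12 ± 0.18 (limma adjusted p = 1). The other 2 probes of Ccnb1 were above background on 1 and 0 arrays, and they correlated with the bright one at r = -0.13 and 0.15.

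Top2a, the topoisomerase that untangles replicated chromosomes, and Cdk1, the kinase that drives mitosis, were near or below background. The Top2a probe (chr11:98855522-98855581) was well above background in 1 library, CT0 mouse 3, at -4.26. Its other 11 values ran from -7.54 to -5.27 and are bounds. The 3 Cdk1 probes were above background on 0 of 12 arrays, with values from -8.00 to -5.23, the highest again in CT0 mouse 3. The part of that array's larger share of spots above background in these values was not tested.

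With all libraries, 1 of the 8 tested genes passed the F test over the 4 times at an adjusted p under 0.05, namely Fam83d, which was chosen for it. Over all genes 0.166% passed. For the 24-hour rhythm (a fitted cosine and sine) the count was again 1 of 8 (Fam83d), beside 0.0706% of all genes. Fam83d was also the 1 gene higher at CT12 than at CT0 (0.0498% of all genes), 0 of 8 were lower (0.0083%), and 0 of 8 passed for CT18 against CT6 (0.0913% of all genes higher, 0.0415% lower). At an unadjusted p under 0.05 in limma, 0 of the 7 genes other than Fam83d and 2004 of 24089 genes stood out for CT18 against CT6. For the F test the unadjusted count apart from Fam83d was 3 of 7 (Ccnb1, Sox11 and Eomes), beside 2551 of 24089. None of the 10 genes other than Fam83d passed the F test in any of the alternative fits, and the adjusted p of Mki67 ranged from 0.342 to 0.854 over them.

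**Figure D2:**
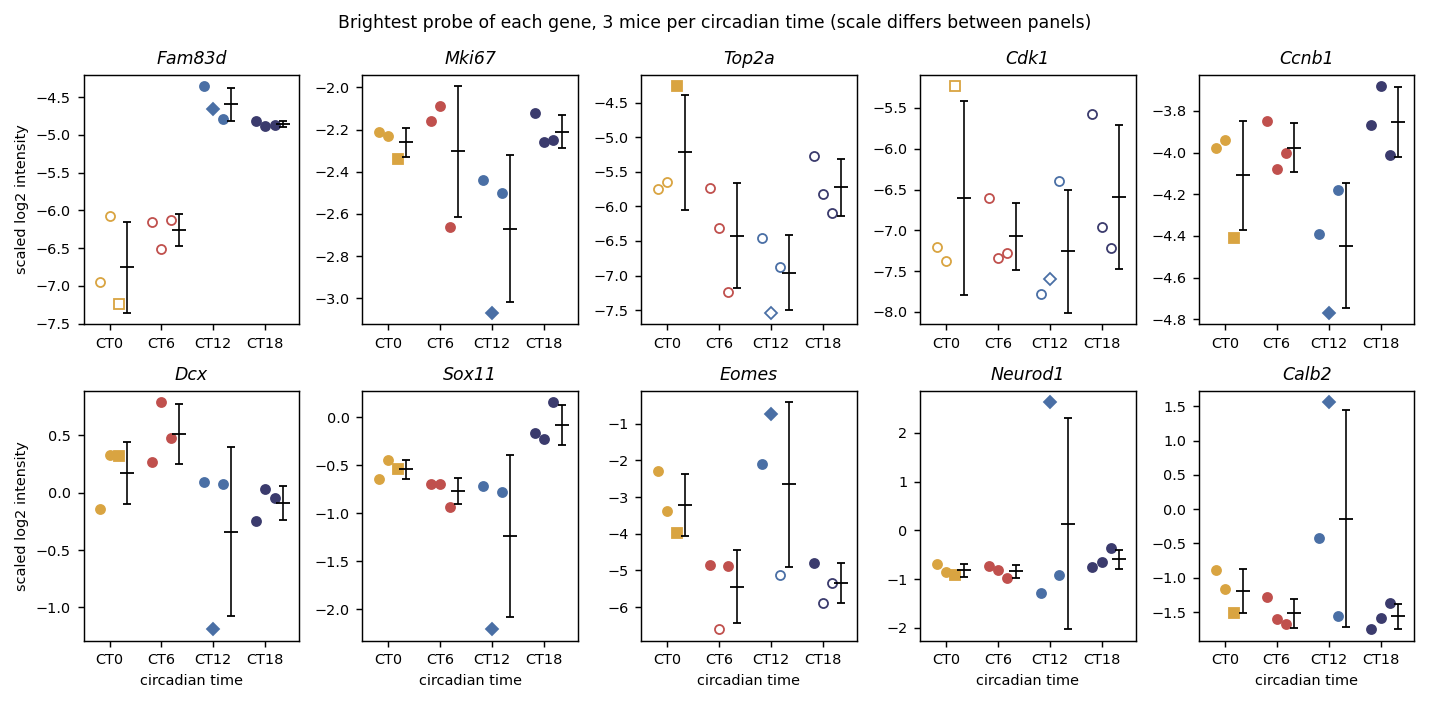
Scaled log2 intensity of the brightest probe of each of the 10 genes at the 4 circadian times, 3 mice each; open symbols are not well above background, the diamond is CT12 mouse 11, the square is CT0 mouse 3, and the bars are the mean ± SD of the 3 mice. Fam83d separates CT12 and CT18 from CT0 and CT6, Mki67 and Ccnb1 have their lowest mean at CT12, and the diamond is the extreme library of Neurod1, Calb2, Eomes, Dcx and Sox11.

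A list of 46 genes of mitosis and cell division put the 5 genes in context. All 46 had a probe, 23 were well above background on all 12 arrays, 5 on none (Cdk1, Aurkb, Bub1, Cenpf and Melk), and 30 entered the tests. Of the 29 other than Fam83d, 0 passed limma's F test and 6 had an unadjusted p under 0.05, beside 2551 of 24089 genes. The median of CT12 minus CT0 over the 29 genes was -0.25, with 8 above 0, beside a median of -0.02 over all genes tested, 46.2% of which lay above 0. For CT18 minus CT6 the median was 0.12 with 21 of 29 above 0, beside -0.02 and 46.2%. Without CT12 mouse 11 the median of the first difference was -0.13, with 10 of 29 above 0.

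Apart from Fam83d, the CT12 minus CT0 difference ran from -1.36 for Ube2c, a ubiquitin-conjugating enzyme of the anaphase-promoting complex, to 0.91 for Cdc20, an activator of that complex. Leaving out CT12 mouse 11 narrowed this to -0.98 and 0.36 for the same 2 genes. Of the 29 genes other than Fam83d, 4 had both differences above 0, and 7 without that library. With all libraries, the highest of the 4 means fell at CT18 for 13 of the 30 genes, at CT12 for 7, at CT0 for 7 and at CT6 for 3. The 7 at CT12 include Fam83d, and these counts are not given without CT12 mouse 11. Over all genes the shares were 25% at CT18, 31.3% at CT12, 19.7% at CT0 and 24.1% at CT6.

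Ccnb2, which encodes cyclin B2, had the pattern closest to that of Fam83d within the list. Its values were -1.37, -1.26 and -1.39 at CT0, -1.52, -1.52 and -1.54 at CT6, -1.13, -1.10 and -1.13 at CT12, and -1.21, -1.11 and -1.0 at CT18. As for Fam83d, which was chosen for it, all 6 night values lay above all 6 day values. Apart from Fam83d this held for 1 of 29 mitosis genes (Ccnb2) and 0 of the 7 tested genes of interest, beside 0.34% of all genes. CT18 minus CT6 was 0.42 ± 0.08 for Ccnb2 (limma adjusted p = 0.0953), and the adjusted p was 0.0371 without CT12 mouse 11, 0.0734 with slide as a block, and 0.0543 without both CT12 mouse 11 and CT0 mouse 3. It passed the threshold in part of these fits.

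Anln encodes anillin, a scaffold of the cleavage furrow that is also known from the myelin sheath of oligodendrocytes. It read 1.64, 1.62 and 1.56 at CT0, 1.30, 0.95 and 1.09 at CT6, 1.90, 2.63 and 1.56 at CT12, and 1.81, 2.21 and 2.10 at CT18. All 3 CT18 values lay above all 3 CT6 values, which came from other mice. The share of all genes with such a separation is not given, here or for Sox11, Dcx, Mki67 and Eomes. The difference of the Anln means was 0.93 ± 0.23 (limma adjusted p = 0.209, and 0.0234 without CT12 mouse 11, which held its highest value). Without that library, 2 of the 29 genes other than Fam83d were higher at CT18 than at CT6 (Ccnb2 and Anln) and 0 lower, beside 0.786% and 0.439% of all genes. With all libraries 0 of the 29 passed for this comparison in limma and 4 had an unadjusted p under 0.05, beside 2004 of 24089 genes. The kinetochore gene Nuf2 gave 0.37 ± 0.17 (adjusted p = 0.638) and the spindle gene Ckap2 0.55 ± 0.19 (adjusted p = 0.415).

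**Figure D3:**
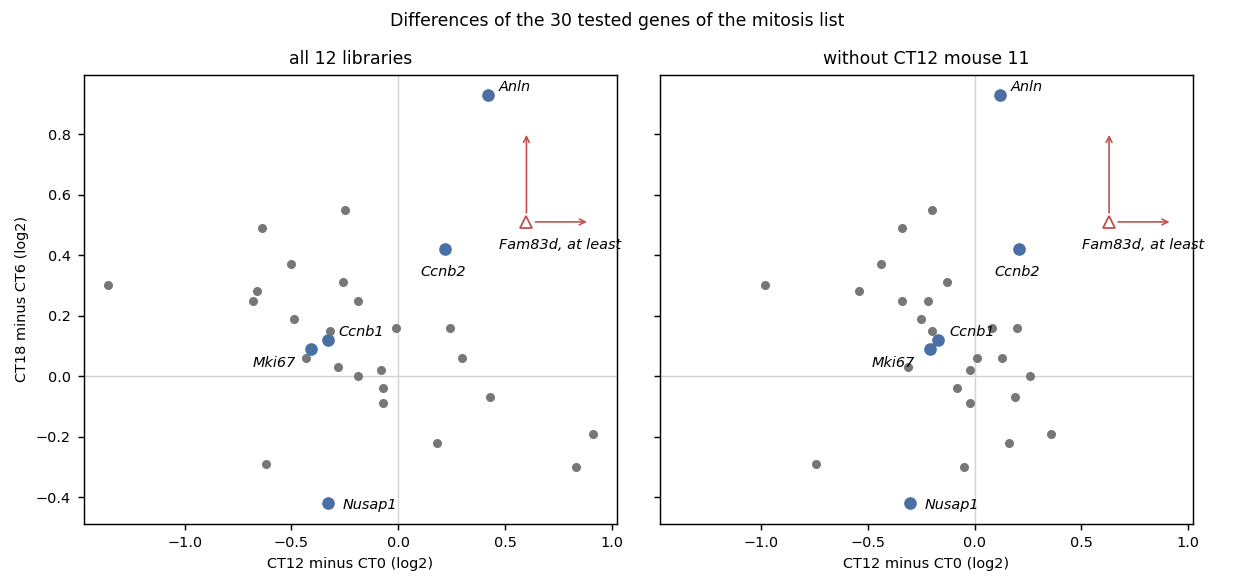
CT12 minus CT0 (horizontal, log2) against CT18 minus CT6 (vertical, log2) for the 30 tested genes of the mitosis list, with all 12 libraries on the left and without CT12 mouse 11 on the right; each point is 1 gene, both differences are between means of the mice, and the open triangle with arrows is Fam83d at its lower bounds. With all libraries Fam83d, whose bounds are approximate, is drawn at 0.60 and 0.51, Mki67 at -0.41 and 0.09, and Ccnb1 at -0.33 and 0.12.

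Likeness to Fam83d was measured as Pearson's r over the 12 libraries, as a description without a p, since 6 of the 12 Fam83d values are below background and the values fall into 2 separate groups. For Mki67 r was -0.34, and it was -0.17 without CT12 mouse 11 and -0.03 after quantile normalization. For Ccnb1 r was -0.13, and its sign turned both without that library (0.12) and after quantile normalization (0.49). Over the 29 other mitosis genes the median r was -0.19, from -0.74 for Nusap1, a microtubule-binding protein of the spindle, to 0.79 for Ccnb2, with 9 above 0. Over all other genes tested the median was -0.06, with 44.3% above 0. The 5 genes with the highest r were Erdr1 (0.89), Cables1 (0.88), Dok7 (0.87), Mfsd2a (0.87) and Ptpdc1 (0.87).

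Dok7, an adaptor of muscle-specific kinase signalling, illustrates that pattern. It read -1.45, -1.30 and -1.51 at CT0, -1.62, -1.72 and -1.51 at CT6, -1.0, -1.07 and -0.95 at CT12, and -1.03, -0.90 and -0.98 at CT18. Mfsd2a, the lipid transporter of the blood-brain barrier, read 1.73 to 2.24 in the 6 day libraries and 2.28 to 2.48 in the 6 night libraries. Both were picked for this likeness, so their separation of day and night is no test.

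Within the 6 libraries in which Fam83d was above background, 7 relations were tested by an exact permutation test over all 720 orders, two-sided. The orders ran across CT12 and CT18 and all 3 slides, so the p-values treat the 6 libraries as interchangeable. All 3 Fam83d values at CT12 lay above all 3 at CT18. The r and rho below therefore mix the difference between these times with that between mice. No value without CT12 mouse 11 alone is given. Mki67 gave r = -0.38 (exact p = 0.415, adjusted 0.581; rho = -0.60, p = 0.242, adjusted 0.338) and Ccnb1 r = -0.64 (exact p = 0.169, adjusted 0.522; rho = -0.89, p = 0.0333, adjusted 0.117). Eomes gave r = 0.76 (exact p = 0.0431, adjusted 0.301; rho = 0.89, p = 0.0333, adjusted 0.117). Among these 6 libraries Eomes was itself well above background on 2 at CT12 and 1 at CT18. Its remaining values are bounds, so its r and rho rest in part on values below background. Without the 2 libraries farthest from the median of Fam83d, r was -0.36 for Mki67, -0.63 for Ccnb1 and 0.78 for Eomes over 4 libraries. The value went from 0.51 to -0.53 for Calb2, from 0 to -0.83 for Neurod1, from -0.43 to -0.72 for Sox11 and from -0.08 to -0.13 for Dcx. None of the 7 relations passed after Benjamini-Hochberg adjustment, and 1 slide or 1 circadian time alone holds too few of these libraries for a value of its own.

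Among the genes of neuroblasts, Sox11 was higher at CT18 than at CT6 once CT12 mouse 11 was left out. Dcx had the opposite sign and passed only when slide was also taken as a block. Sox11, a transcription factor of newborn neurons, read -0.64, -0.44 and -0.54 at CT0, -0.69, -0.69 and -0.93 at CT6, -0.72, -2.21 and -0.78 at CT12, and -0.16, -0.23 and 0.16 at CT18 (probe on chr12:28020087-28020146). The 3 CT18 values lay above the other 9, and CT12 mouse 11 was the lowest library by more than 1 log2 unit. CT18 minus CT6 was 0.69 ± 0.33 with all libraries (limma adjusted p = 0.642) and 0.69 ± 0.12 without CT12 mouse 11 (adjusted p = 0.033), where 1 of the 7 genes other than Fam83d was higher at CT18 (Sox11) beside 0.786% of all genes. CT12 mouse 11 enters this comparison only through the estimate of spread that the 4 times share. With that library left out, the adjusted p of Sox11 was 0.0494 without CT0 mouse 3 as well and 0.0466 when slide was a block, and it ranged from 0.033 to 1 over the 23 alternatives, 3 of which called it.

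Within the slides the Sox11 difference was 0.53, 0.46 and 1.10. The second Sox11 probe (chr12:28019541-28019600) had the same sign on each slide with smaller values of 0.31, 0.15 and 0.48. Tested on its own without CT12 mouse 11 it gave 0.31 ± 0.09 and did not pass (adjusted p = 0.136). The 2 probes correlated at r = 0.88 over those 11 libraries.

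Dcx encodes doublecortin, a microtubule protein of migrating neuroblasts. Its brightest probe (chrX:140290854-140290913) read -0.14, 0.33 and 0.32 at CT0, 0.27, 0.79 and 0.48 at CT6, 0.09, -1.19 and 0.08 at CT12, and -0.25, 0.03 and -0.05 at CT18. All 3 CT6 values lay above all 3 CT18 values. CT18 minus CT6 was -0.60 ± 0.31 with all libraries (limma adjusted p = 0.703), -0.60 ± 0.16 without CT12 mouse 11 (adjusted p = 0.127) and -0.60 ± 0.10 when slide was added as a block and that library left out (adjusted p = 0.0354). In this last fit 1 of the 7 genes other than Fam83d was lower at CT18, Dcx, beside 1.36% of all genes, and 1 was higher, Sox11, beside 1.32%.

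The slides gave -0.52, -0.76 and -0.52 for Dcx, and -0.54, -0.72 and -0.62 for its second probe (chrX:140296337-140296396). The third probe (chrX:140295893-140295952) was above background on 3 of 12 arrays. Whether the changes of Sox11 and Dcx differ from each other was not tested. CT12 mouse 11 minus the median of the other libraries was -1.57 for Sox11 and -1.28 for Dcx.

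Of 13 genes of dentate granule cells, the neurons that adult neurogenesis makes, 12 had CT18 minus CT6 above 0, as did Sox11. Over all genes 46.2% lay above 0. The median of the 13 was 0.50 beside -0.02 over all genes. With all libraries 0 of the 13 passed in limma and 2 had an unadjusted p under 0.05, beside 2004 of 24089 genes. Without CT12 mouse 11, 1 of the 13 was higher at CT18, Lct, beside 0.786% of all genes. Its difference was then 0.93 ± 0.16 (limma adjusted p = 0.0339). Their summed level was 4.78 to 5.05 (log2) at CT18, 4.31 to 4.60 at CT6 and 4.72 to 4.85 at CT0. At CT12 it was 4.44 in mouse 10, 4.37 in mouse 12 and 5.28 in mouse 11. In CT12 mouse 11, 9 of the 13 genes lay more than 1 log2 unit below the median of the other libraries. Another 2 lay more than 1 above it. Prox1, the transcription factor that defines these cells, read -0.78, -1.03 and -1.30 at CT6 and -0.60, -0.54 and -0.27 at CT18, a difference of 0.56 ± 0.18 (limma adjusted p = 0.332; 0.103 without CT12 mouse 11). Other lists leaned to 1 side as well. CT18 minus CT6 was above 0 for 10 of 10 ependyma genes and 6 of 6 blood genes. It was above 0 for 2 of 14 cerebellum genes and 2 of 13 interneuron and Cajal-Retzius cell genes. The part of the granule cell content of a sample in the Sox11 difference was not tested.

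Eomes, the transcription factor TBR2 of intermediate progenitors, varied widely between mice of 1 time. Its brighter probe (chr9:118394425-118394484) was above background on 8 of 12 arrays and read -2.29, -3.37 and -3.97 at CT0, -4.85, -6.60 and -4.87 at CT6, -2.11, -0.73 and -5.12 at CT12, and -4.79, -5.89 and -5.34 at CT18. All 3 values at CT0 lay above all 6 values of CT6 and CT18, while CT12 held both the 2 highest values of all and 1 value, -5.12, within the range of CT6 and CT18. The values of CT6 mouse 6, CT12 mouse 12 and CT18 mice 15 and 16 were not well above background and are bounds. How many of all genes separate in this way is not given. The F test gave an adjusted p of 0.422 in limma with all libraries and 0.395 without CT12 mouse 11. The second probe (chr9:118395189-118395248) was above background in 1 library, CT12 mouse 11.

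The 3 highest Eomes values came from CT12 mouse 11, CT12 mouse 10 and CT0 mouse 1. In these libraries the summed level of 10 choroid plexus genes was 7.13, 8.06 and 8.54 (log2), and that of the ependyma list was 3.85, 4.44 and 4.76. CT6 mouse 7 and CT18 mouse 14 had choroid plexus levels of 7.76 and 7.62 with Eomes at -4.87 and -4.79. The other 7 libraries had choroid plexus levels of 1.15 to 1.72, and among them CT0 mouse 2 and mouse 3 had Eomes at -3.37 and -3.97. Ttr, the most abundant choroid plexus gene, was at 8.20 in CT0 mouse 1 and at -2.03 in CT18 mouse 16. The part of such tissue in the Eomes values was not tested.

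Neurod1, a transcription factor of neuroblasts that is also strong in cerebellar granule cells, lay between -1.29 and -0.37 in 11 libraries. It read -0.68, -0.86 and -0.92 at CT0, -0.73, -0.81 and -0.98 at CT6, -1.29, 2.63 and -0.92 at CT12, and -0.75, -0.65 and -0.37 at CT18 (probe on chr2:79294309-79294368). CT12 mouse 11 lay 3.44 log2 units, or 10.8-fold, above the median of the others, and the second probe (chr2:79293621-79293680) showed a gap of 3.56. CT12 minus CT0 was 0.96 ± 0.80 with that library (limma adjusted p = 0.622) and -0.29 ± 0.15 without it (adjusted p = 0.686), so the sign of the difference rested on 1 mouse.

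Calb2 encodes calretinin, a calcium-binding protein of young granule neurons, of some interneurons and, outside the hippocampus, of cerebellar and thalamic neurons. Its probe (chr8:112678555-112678614) read -0.88, -1.16 and -1.52 at CT0, -1.28, -1.60 and -1.68 at CT6, -0.42, 1.56 and -1.56 at CT12, and -1.74, -1.58 and -1.37 at CT18. The highest libraries were CT12 mouse 11 and CT12 mouse 10, and the third mouse of CT12 lay among the values of the other times. CT12 minus CT0 was 1.05 ± 0.60 (limma adjusted p = 0.483) and 0.20 ± 0.31 without CT12 mouse 11 (adjusted p = 0.916). Over 11 thalamus genes the summed level was 5.51 in CT12 mouse 10 and 5.03 in CT12 mouse 11, against 4.06 to 4.64 in the other 10 libraries. The part of such tissue in the Calb2 values was not tested.

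**Figure D4:**
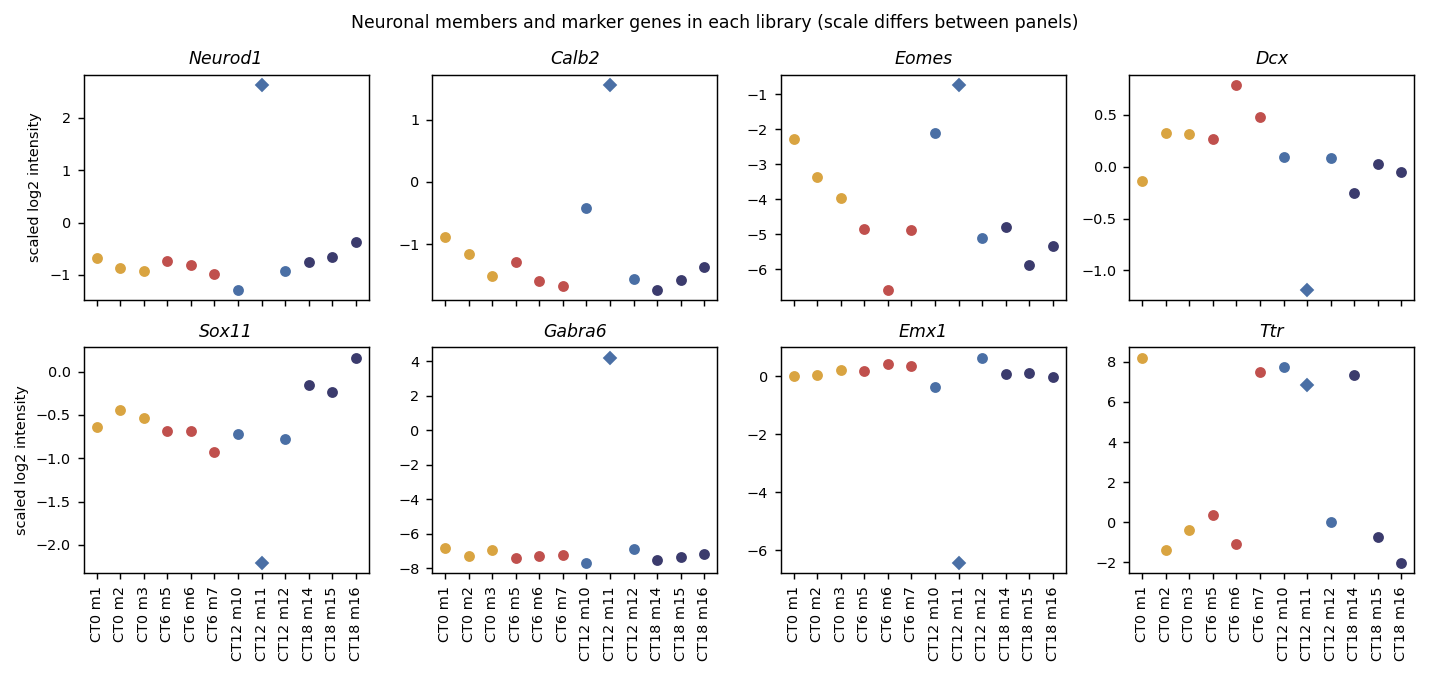
Scaled log2 intensity in each of the 12 libraries for 5 neuronal genes and for markers of cerebellum (Gabra6), forebrain (Emx1) and choroid plexus (Ttr), with CT12 mouse 11 as a diamond. Neurod1, Calb2 and Eomes have their highest and Dcx and Sox11 their lowest value in CT12 mouse 11, the library with Gabra6 at 4.21 and Emx1 not well above background.

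Lists of the neighbouring stages gave few changes. Of 29 tested DNA replication genes, 1 passed, Chaf1b, a subunit of the histone chaperone CAF-1, which was lower at CT18 than at CT6. It read -1.76, -1.65 and -1.75 at CT6 and -2.35, -2.26 and -2.42 at CT18, a difference of -0.62 ± 0.09 (limma adjusted p = 0.0439; 0.0177 without CT12 mouse 11, and 0.0552 with slide as a block), beside 0.0415% of all genes lower. The median of the replication list was -0.01 for this difference, with 14 of 29 above 0, and 0.13 for CT12 minus CT0, with 19 of 29 above 0. Cdt1, which licenses replication origins, and Rrm1, the large subunit of ribonucleotide reductase, had their highest values in CT12 mouse 11, at 0.34 and 0.73. Neither passed limma's F test, with adjusted p-values over all genes of 0.409 for Cdt1 and 0.51 for Rrm1.

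Of 20 genes of neural stem cells and radial glia, 0 passed any of the 4 tests with all libraries. Fabp7, the brain fatty acid-binding protein of radial glia and astrocytes, came nearest, with 2.53, 3.06 and 2.64 at CT6 and 1.49, 1.82 and 1.94 at CT18, a difference of -0.99 ± 0.19 (limma adjusted p = 0.0793; 0.033 without CT12 mouse 11, and 0.0489 with slide as a block). Sox2, a transcription factor of stem cells and astrocytes, had a CT12 minus CT0 of -0.47 ± 0.08 and did not pass (limma adjusted p = 0.0902), and neither did Lpar1, a lysophosphatidic acid receptor, with 0.36 ± 0.16 (adjusted p = 0.428). At an unadjusted p under 0.05, 5 of the 20 stood out in the F test, beside 2551 of 24089 genes. For the 18 tested genes of intermediate progenitors and neuroblasts the medians were -0.22 for CT12 minus CT0, with 6 above 0, and -0.03 for CT18 minus CT6, with 7 above 0, and 0 passed with all libraries. Without CT12 mouse 11 the first median was -0.06, and 0.01 with slide as a block as well. Ncam1, a cell adhesion molecule of migrating neurons, gave -0.18 ± 0.10 for CT12 minus CT0 (limma adjusted p = 0.48). Of 15 immature granule neuron genes, a list that includes Dcx, 0 passed with all libraries, with medians of -0.02 and -0.05. Bhlhe22, a transcription factor of dorsal forebrain neurons, gave a CT18 minus CT6 of 0.40 ± 0.21 (adjusted p = 0.718) and Gap43, a growth cone protein, -0.29 ± 0.12 (adjusted p = 0.524). The unadjusted counts in limma's F test were 3 of 18 and 2 of 15 for these lists, beside 2551 of 24089 genes.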

How the data were processed

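Each mouse had 1 array. Per the file headers the authors quantified spots with Agilent Feature Extraction 10.7.3.1, giving an intensity after background subtraction within the array, with probe coordinates on mm9. The other columns used, flags of 0 or 1 for each spot, are deposited with the intensities. Log2 values fill the deposited table, and the step that made it is not given in the sources used here. It served as an alternative.

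Outlier spots were dropped, spots of a probe averaged, and log2 processed signal was scaled by the 75th percentile of each array. Of 55681 probes, 33965 were well above background on all arrays of at least 1 time, and the brightest probe stood for its gene (24089 genes). Names were updated through RefSeq (GRCm38.p6): accessions named 26582 probes, symbols 2602 and synonyms 492, while 26005 retained the name of the array. Depth here is signal over background, and the number of arrays limits the precision.

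With R 4.3.3 and limma 3.58.1, all 12 arrays entered 1 fit, read by the moderated F test over 4 times, a cosine and sine of 24 h, CT12 against CT0 and CT18 against CT6, each with Benjamini-Hochberg adjustment over all genes. The procedure was tested on simulated data. Python 3.11.15 with pandas 2.3.3 and numpy 2.4.6 gave summaries and permutation tests. The correlation of Fam83d over all 12 mice was planned with a p, and was tested within the 6 bright libraries instead. Named were all 10 genes with every probe, the 6 mitosis genes and 3 genes of each of 4 related lists with the smallest F test p, the 5 genes most like Fam83d, and 6 markers, 1 of which is not reported here. Ube2c, Cdc20, Nusap1 and the dim mitosis genes were named after their values were seen. The genes, lists and markers were chosen with earlier results of these data known. Alternatives were other scalings, normexp, other filters and probe summaries, the deposited table, slide as a block, and leaving out libraries.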

Additional observations from a re-analysis of the deposited data

How the results depend on the processing

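The groups share no replicate number that could be a block. Each of the 3 slides held 1 array of each circadian time, so slide was fitted as a block instead, and the adjusted F test p of Fam83d in limma was then 0.0733 in place of 0.0257. Without 1 library at a time, the count of the 8 genes passing ranged from 0 to 1 for the F test, the 24-hour rhythm and CT12 against CT0, and from 0 to 2 for CT18 against CT6, and that of the mitosis list for the F test from 0 to 1. The count was 0 for each of the 4 results that called Fam83d (F test, mitosis list, rhythm and CT12 against CT0) with quantile normalization, normexp, the deposited table and the filter on all arrays, which leaves Fam83d out by its construction. For the F test, the mitosis list and CT12 against CT0, but not the rhythm, it was also 0 with no filter on dim probes, slide as a block, the block together with leaving out CT12 mouse 11, and without CT0 mouse 3 and CT12 mouse 11. CT18 against CT6 gave 2 without CT0 mouse 3 and CT12 mouse 11, and 3 with the slide block when CT12 mouse 11 was left out; these 2 pairs of choices and median centring over all probes were chosen after seeing the data. Apart from the filter, the cause of these losses was not tested. Fam83d was chosen on these tests, so its calls describe how that choice depends on the processing and are no test of it. The F test kept its call of Fam83d in 6 of 23 alternatives, the rhythm in 16 and CT12 against CT0 in 5. Among the omissions of 1 library, the F test kept it without CT0 mouse 2, CT12 mouse 11 or CT12 mouse 12 and lost it in the other 9, CT12 against CT0 kept it without CT0 mouse 2 or CT12 mouse 12, and the rhythm lost it without CT0 mouse 1, CT12 mouse 10 or CT18 mouse 14. Over all genes, the F test called 40 with all libraries, 65 without CT12 mouse 11, 16 with slide as a block and 2 with no filter. Without any 1 of the 3 CT6 libraries or CT18 mouse 14 it called 0 (with 1805 to 2063 genes at an unadjusted p under 0.05 in limma), and without CT12 mouse 12 it called 131. The range of the 4 means of Fam83d was 1.92 to 2.50 over the alternatives apart from normexp (0.30), and 2.26 with quantile normalization and the deposited table, where the calls were lost. That range was 0.24 to 0.57 for Mki67, 0.11 to 0.97 for Ccnb1, and 0.69 to 1.42 for Sox11. The correlations of Mki67, Ccnb1 and Eomes within the 6 libraries kept their sign under quantile normalization and in the deposited table. Signal over background limits Fam83d, Top2a and Cdk1. Groups of 3 mice are too small for the outlier screen used for larger groups; CT12 mouse 11 and CT0 mouse 3 were singled out by tissue markers and by the share of spots above background.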
